A study of Mus musculus with 4 samples.

Results

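The genes of the unfolded protein response (UPR) and the integrated stress response (ISR) were compared between Senp6-Mut and WT primary rib chondrocytes. The 40 members were taken by symbol from a fixed list of stress sensors, endoplasmic reticulum (ER) chaperones and ATF6, XBP1 and ATF4 target genes. All 40 were found among the 18298 genes that the files list, and all 40 were among the 14123 genes tested. The WT samples were Senp6f/f without Cre, and the Mut samples were Dermo1-Cre;Senp6f/f, so both groups carried the floxed Senp6 alleles on a C57BL/6 background and only Mut carried the recombinase. Dermo1-Cre is driven from the Twist2 (Dermo1) locus in mesenchymal progenitors of cartilage and bone. Chondrocytes were released from rib cartilage at E18.5 and cultured (P1 in the labels), and mRNA was sequenced from 2 samples of each genotype. The series text speaks of mice of each genotype, but it does not say whether a culture held 1 embryo or several, and sexes were not separated.

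Gene counts summed to 21.02 M and 26.14 M reads (M, mega) in WT replicates 1 and 2, and to 30.99 M and 28.25 M in Mut replicates 1 and 2. Levels are given as RPKM, in which the reads of a gene are scaled by its transcript length and by the total of counted reads. Senp6 itself, the targeted gene, had an RPKM of 10.8 and 18.0 in WT and of 12.02 and 8.07 in Mut, and these gene-level values do not separate deleted from intact transcripts. The summed RPKM of the 15 chondrocyte markers found, of 17 listed, was 1061 and 1020 in WT against 521 and 657 in Mut. Markers of the labelled cell type were thus present in all samples at unequal levels. The 9 fibroblast and perichondrium markers had the largest sum of the marker lists, 12837 and 9065 in WT and 9091 and 6851 in Mut. Among them Col1a1 ranked 1 of all genes by mean RPKM. Of the 9, 7 had a negative log2 fold change and 2 a positive one, among the latter Thy1 (219 and 341 in WT, 609 and 832 in Mut). In bulk RNA, fewer cells of a type and less RNA per cell cannot be told apart. The summed striated muscle markers were 95.2 and 32.2 in WT and 157 and 171 in Mut, and the blood markers did not exceed 0.252. The macrophage markers were at 22.05 and 18.9 in WT against 8.79 and 11.9 in Mut. Both Mut samples lay below both controls for 6 of their 7 tested genes (19.2% of all tested genes). Some of these had few reads, with 13 to 17 per sample for Emr1 and 9 to 17 for Tyrobp. The osteoblast markers had a median log2 fold change of -1.11, and 4 of the 5 tested lay below both controls in Mut (19.2% of all tested genes). Among these was Alpl (90.1 and 45.7 in WT, 11.6 and 22.4 in Mut). Spp1, which made up most of the summed RPKM of the osteoblast markers, lay above both (310.1 and 468 in WT, 479 and 600.4 in Mut). Endothelial markers summed to at most 1.52. The part of any of these cells in the values below was not tested. Mut replicate 2 held 11354 reads of Xist, and no other sample more than 5.

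Proteins that enter the ER are folded by chaperones and disulfide isomerases, and the UPR matches this capacity to the load. Its sensors are the kinase and RNase IRE1 (Ern1), which splices the Xbp1 mRNA, the kinase PERK (Eif2ak3), which phosphorylates eIF2α, and ATF6, which is cut in the Golgi to release a transcription factor. Phosphorylated eIF2α lowers translation in general but favors translation of ATF4, and other kinases reach the same point from amino acid shortage, heme shortage or viral RNA, which is why the shared arm is called the ISR. Chondrocytes secrete large amounts of collagen and proteoglycan and are known for a high ER load. Splicing of Xbp1, cleavage of ATF6, phosphorylation and translation were not measured here, so the comparison is one of mRNA levels.

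The promoters of the members were searched for short sequence elements of the UPR and the ISR. The list was made of ER chaperones and ATF6, XBP1 and ATF4 target genes, so the shares below are a description and not a test. Windows from 250 bases before to 50 bases after the RefSeq start (GRCm38.p6) were found for 34 of the 40 members. The ER stress response element (ERSE) was searched on both strands as CCAAT, 9 further bases and CCACG. It was in 8 of the 34 members (23.5%), and in 0.119% of all 32851 windows. Here and below the share of members counts genes with a match in any window, whereas the other share counts single windows. The matches before the start are shown because these genes carry the levels described below, with the fixed letters of the element in capitals. A match on the opposite strand reads CGTGG first and ATTGG last. Each stretch is written 5′ to 3′ on the strand of its gene, which is the plus strand for Hspa5, Creld2, Dnajc3, Pdia6 and Syvn1 and the minus strand for Hsp90b1, Calr and Canx.
Hspa5, chr2:34772020-34772048: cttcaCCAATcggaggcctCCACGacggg
Hsp90b1 distal, chr10:86705633-86705661: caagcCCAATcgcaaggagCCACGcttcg
Hsp90b1 proximal, chr10:86705528-86705556: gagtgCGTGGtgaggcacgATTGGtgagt
Calr, chr8:84847070-84847098: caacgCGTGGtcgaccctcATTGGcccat
Canx, chr11:50325795-50325823: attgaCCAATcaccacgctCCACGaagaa
Creld2, chr15:88819515-88819543: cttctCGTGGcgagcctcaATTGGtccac
Dnajc3, chr14:118937822-118937850: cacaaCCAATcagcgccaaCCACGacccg
Pdia6, chr12:17266486-17266514: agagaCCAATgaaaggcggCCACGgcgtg
Syvn1, chr19:6046527-6046555: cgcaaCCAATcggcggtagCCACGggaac

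The Hspa5 match ran from 65 to 47 bases before the start, and that of Syvn1 from 44 to 26 bases. The element includes CCACG, which on its own was in 24 of the 34 members (70.6%) and in 32.8% of all windows. The shorter ERSE-II, searched as ATTGG, any base and CCACG, was in Dnajb11 and Herpud1 and in 0.0365% of all windows. ACGTGG, the core of the UPR element bound by XBP1, was in 4 members (11.8%) and in 8.31% of all windows. It holds CGTGG, which is CCACG on the other strand, so each of these matches is also a match of CCACG. The C/EBP-ATF response element (CARE) through which ATF4 acts was searched as TGATGNAA on both strands. It was in 5 members (14.7%), namely Herpud1, Trib3, Asns, Chac1 and Vldlr, and in 3.97% of all windows. The match is shown for a biosynthetic and a regulatory ATF4 target, on the minus strand for Asns and the plus strand for Chac1, where it reads in reverse.
Asns, chr6:7693214-7693243: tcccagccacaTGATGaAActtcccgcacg
Chac1, chr2:119351038-119351067: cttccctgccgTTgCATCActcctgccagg

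A match is a description of letters, not of binding.

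No member passed the threshold of 0.05 in the edgeR quasi-likelihood test after Benjamini-Hochberg correction over every tested gene. The count was 0 of 40 higher and 0 of 40 lower in Mut, against 0% of all tested genes in either direction, and the smallest adjusted p of a member was 0.194. At an unadjusted p under 0.05 in the same edgeR fit, 1 member was higher (9.29% of all tested genes) and 3 were lower (6.28% of all tested genes). DESeq2 placed 0 members higher (3.11% of all tested genes) and 1 member, Sec61b, lower (1.89% of all tested genes). The median log2 fold change was -0.048 over the members and 0.0097 over all tested genes. Both Mut samples lay above both WT samples for 3 members (28.3% of all tested genes) and below both for 11 (19.2% of all tested genes). These shares use the RPKM without TMM factors. With such factors 27.5% of the members lay below both, against 22.8% of all tested genes.

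How large a difference the data still allow was read from the 95% interval of each fold change. For 39 of the 40 members the interval lay within 2-fold in both directions, as it did for 70.2% of all tested genes, and Sec61b was the exception. These intervals rest on 2 samples a group and on a spread that edgeR estimates partly from other genes, and many members are abundant, with 87 to 47089 reads each per sample. Within the members the log2 fold changes ran from -0.68 (Sec61b) to 0.42 (Atf6).

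**Figure D1:**
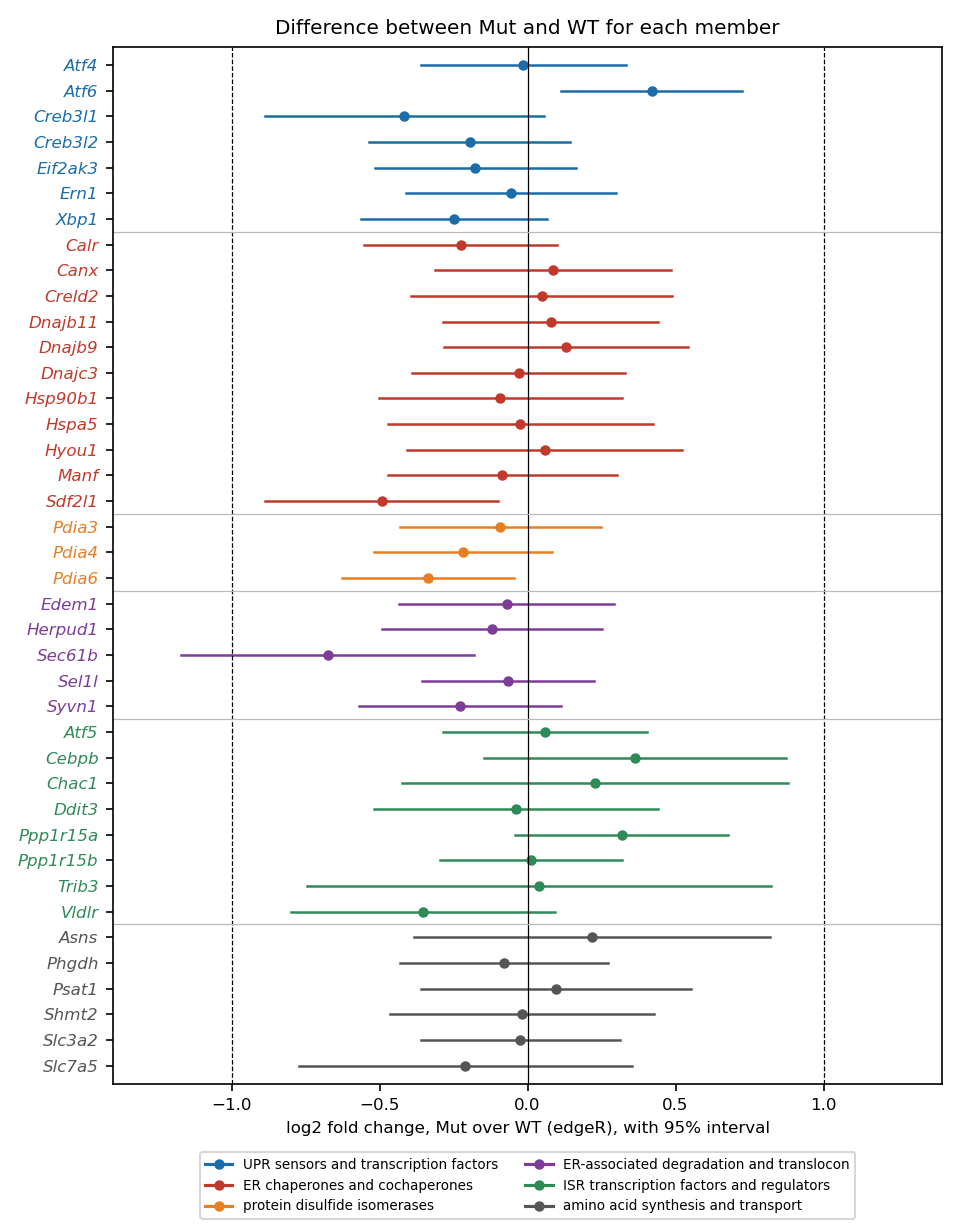
Log2 fold change of each of the 40 members between Mut and WT (points, edgeR) with its 95% interval (bars), grouped by role, n = 2 samples per genotype; the dashed lines mark 2-fold. The intervals of all members but Sec61b stay between the dashed lines, and those of Atf6, Sdf2l1, Pdia6 and Sec61b do not reach 0.

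Of the 7 sensors and their transcription factors, both Mut samples lay below both controls for 4, namely Xbp1, Creb3l1, Creb3l2 and Eif2ak3 (19.2% of all tested genes). They lay above both for 1, Atf6 (28.3% of all tested genes). With 7 genes these counts were not tested. Atf6, the membrane-bound transcription factor that drives chaperone genes, had an RPKM of 5.85 and 6.18 in WT and of 7.88 and 8.69 in Mut. Both Mut samples were above both WT samples. Between genotypes its log2 fold change was 0.42 (95% interval 0.11 to 0.73, edgeR adjusted p = 0.194), or 1.34-fold. Ern1 had an RPKM of 5.40 and 6.48 in WT and of 5.83 and 5.91 in Mut, so both Mut values lay between those of WT (log2 fold change -0.056, interval -0.41 to 0.30, edgeR adjusted p = 0.897). Eif2ak3 had 11.7 and 10.74 in WT and 10.65 and 9.77 in Mut (log2 fold change -0.18, interval -0.52 to 0.16, edgeR adjusted p = 0.617). Its groups did not overlap, but the gap between them was less than the spread within either.

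Xbp1, the transcription factor whose mRNA is spliced by IRE1, had an RPKM of 54.2 and 61.5 in WT and of 52.3 and 47.9 in Mut. The Mut samples were the lower ones, with a log2 fold change of -0.25 (interval -0.56 to 0.07, edgeR adjusted p = 0.436). Atf4, the transcription factor of the ISR, had 133 and 159 in WT and 158 and 139 in Mut. The Mut values fell inside the WT range (log2 fold change -0.014, interval -0.36 to 0.33, edgeR adjusted p = 0.974). Among these 7 genes Atf4 and Creb3l1 had the highest RPKM, and Ern1 and Atf6 the lowest. Creb3l1 and Creb3l2 encode OASIS-family factors that act in the secretory path of bone and cartilage cells. Creb3l1, singled out after its values were seen, had an RPKM of 140.1 and 123 in WT and of 118 and 84.8 in Mut, with most of the difference in Mut replicate 2 (log2 fold change -0.42, interval -0.89 to 0.06, edgeR adjusted p = 0.380). Of the 7, 6 had a negative log2 fold change (48.6% of all tested genes), and none passed the adjusted threshold in the edgeR test.

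None of the 11 ER chaperones and cochaperones passed the adjusted threshold in the edgeR test, and for 8 of them both Mut samples lay between the controls. Calreticulin (Calr), a lectin chaperone for glycoproteins, had the highest RPKM of the 40 members, 769 and 927 in WT and 745.3 and 745.4 in Mut, and ranked 67 among all genes by mean RPKM. Hspa5, which encodes BiP, the Hsp70 of the ER and the classical readout of ER stress, had an RPKM of 253 and 375 in WT and of 323 and 310.0 in Mut. Both Mut values lay between those of the controls. The log2 fold change of Hspa5 was -0.025 (interval -0.47 to 0.42, edgeR adjusted p = 0.965), so a fold below 0.721 or above 1.34 lies outside the interval. The ER Hsp90 (Hsp90b1) had 348 and 487 in WT and 409 and 394 in Mut.

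The same order, with WT replicate 1 lowest and WT replicate 2 highest, was seen in 8 of the 11 chaperone genes. These are Hspa5, Hsp90b1, Canx, Dnajb11, Dnajc3, Creld2, Manf and Hyou1. Hyou1, the nucleotide exchange factor of BiP, had an RPKM of 43.2 and 65.2 in WT and of 60.2 and 55.5 in Mut. Over the 11 genes the log2 fold changes between genotypes ran from -0.49 to 0.13 with a median of -0.025. The low end was Sdf2l1, a component of the BiP-DnaJ complexes that keep unfolded proteins soluble. Sdf2l1 had an RPKM of 15.2 and 15.0 in WT and of 11.2 and 10.9 in Mut, so the spread within each genotype was small and both Mut samples were lower. Its log2 fold change was -0.49 (interval -0.89 to -0.10, edgeR adjusted p = 0.224), and its promoter window held CCACG but not the full ERSE.

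Of the protein disulfide isomerases, which form and rearrange disulfide bonds in the ER, all 3 had a negative log2 fold change (48.6% of all tested genes). None passed the adjusted threshold. Pdia6 had an RPKM of 225 and 248 in WT and of 189.7 and 196 in Mut. Both Mut samples were below both WT samples (log2 fold change -0.34, interval -0.63 to -0.05, edgeR adjusted p = 0.251). Pdia4 gave 169 and 193 in WT and 159.6 and 160.2 in Mut (log2 fold change -0.22, edgeR adjusted p = 0.473). For Pdia3, the partner of calreticulin and calnexin, both Mut values lay between those of WT.

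Among the genes of ER-associated degradation and the translocon, Sec61b had the lowest log2 fold change of the 40 members. It encodes the β subunit of the SEC61 channel through which new proteins enter the ER. Its RPKM was 217 and 149 in WT and 119.8 and 117 in Mut. The Mut samples were lower and close to each other, while the controls differed from each other by more than WT replicate 2 differed from Mut. Between genotypes this gave a log2 fold change of -0.68 (interval -1.17 to -0.18, edgeR adjusted p = 0.195, DESeq2 adjusted p = 0.0487). Without WT replicate 1 the value was -0.35, and without WT replicate 2 it was -0.97. The transcript model of Sec61b has 552 bases and is the shortest of the members. Over the 575 tested genes under 1000 bases with a mean RPKM of at least 10, the median log2 fold change was -0.11, against 0.032 over the 1498 such genes of 4000 bases or more, and the part of length in the Sec61b value was not tested. The other subunits of the channel, added after the values were seen, were Sec61a1 with a log2 fold change of -0.32 (edgeR adjusted p = 0.366), Sec61a2 with one of -0.017 (edgeR adjusted p = 0.972) and Sec61g with one of -0.051 (edgeR adjusted p = 0.900). For Sec61a2 and Sec61g both Mut values lay between those of WT.

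All 5 genes of this role group had a negative log2 fold change (48.6% of all tested genes). For the degradation genes the log2 fold changes were -0.12 for Herpud1, a membrane protein of the degradation complex, -0.23 for Syvn1, its ubiquitin ligase, -0.068 for Sel1l, the adaptor of that ligase, and -0.071 for Edem1, which marks misfolded glycoproteins. Syvn1 had an RPKM of 42.5 and 37.1 in WT and of 36.2 and 33.8 in Mut, with both Mut samples below both controls. For Sel1l and Edem1 both Mut values lay between those of WT.

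**Figure D2:**
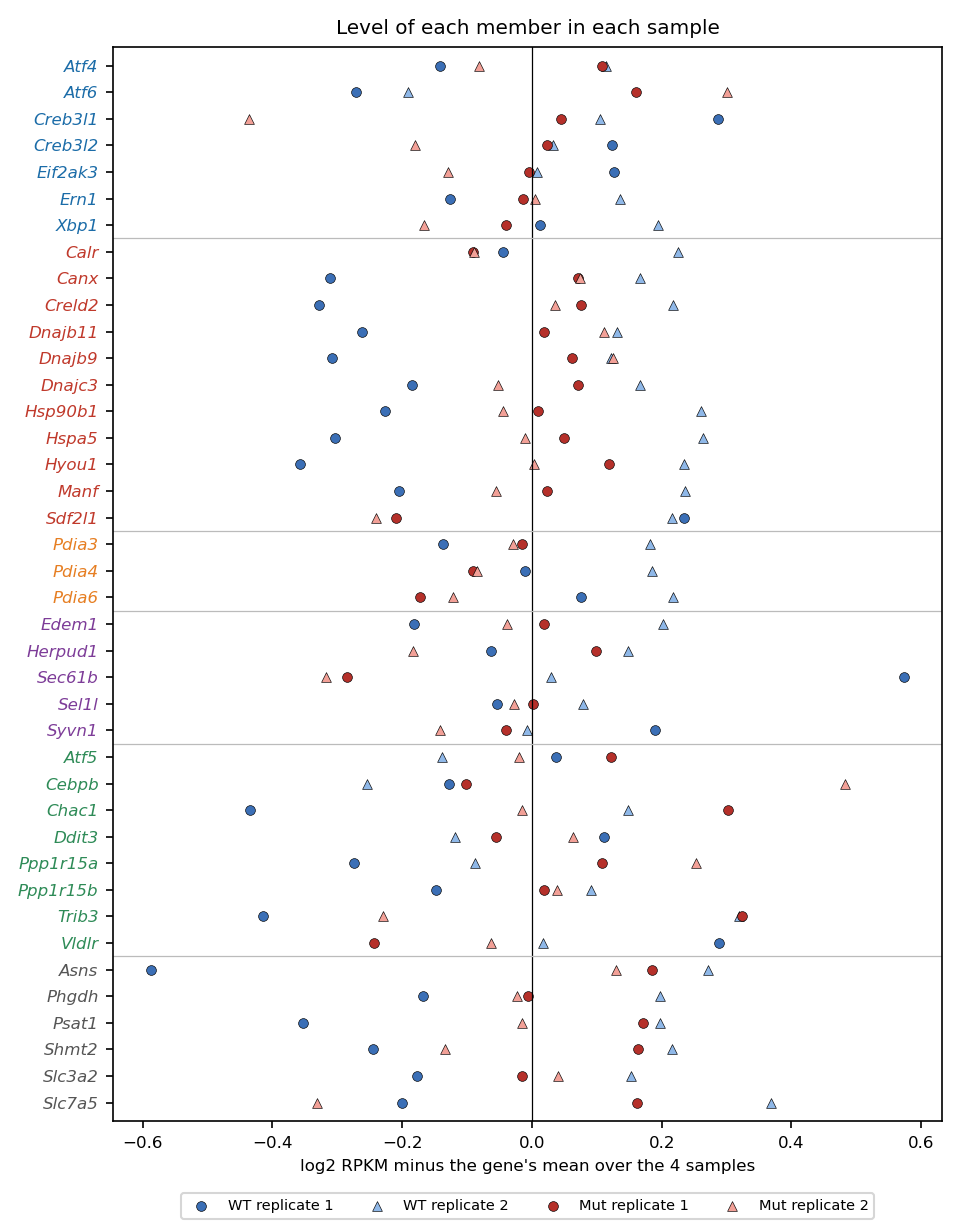
Log2 RPKM of each member in each of the 4 samples minus that gene's mean over the 4 samples, grouped by role. For most chaperones and amino acid genes WT replicate 1 is at the left, WT replicate 2 at the right and both Mut samples between them, whereas both Mut samples are to the left of both WT samples for Sdf2l1, Pdia6 and Sec61b and to the right for Atf6.

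Of the 8 regulators of the ISR, 6 had a positive log2 fold change (51.4% of all tested genes) and 2 a negative one. Their median was 0.048, and none passed the adjusted threshold in the edgeR test. Ddit3 encodes CHOP, the transcription factor linked to cell death under lasting stress. Ddit3 had an RPKM of 12.4 and 10.6 in WT and of 11.05 and 12.002 in Mut, with both Mut values between those of WT (log2 fold change -0.039, interval -0.52 to 0.44, edgeR adjusted p = 0.948). Trib3 and Chac1, both induced through ATF4 and CHOP, were low, with an RPKM of 2.02 to 3.37 for Trib3 and of 2.83 to 4.71 for Chac1 over the 4 samples. Their log2 fold changes were 0.038 and 0.23, with wide intervals of -0.75 to 0.82 and of -0.43 to 0.88. Ppp1r15a (GADD34), the stress-induced subunit that directs a phosphatase to eIF2α, had 7.0005 and 7.96 in WT and 9.12 and 10.1 in Mut. Its groups did not overlap (log2 fold change 0.32, interval -0.04 to 0.68, edgeR adjusted p = 0.378). Its constitutive counterpart Ppp1r15b had a log2 fold change of 0.011. Cebpb, a transcription factor shared with inflammatory signaling, had 12.7 and 11.7 in WT and 12.95 and 19.4 in Mut, with most of the difference in Mut replicate 2 (log2 fold change 0.36, edgeR adjusted p = 0.485). With TMM factors applied to the RPKM its groups overlapped. Atf5 had a log2 fold change of 0.058. The lipoprotein receptor Vldlr, the least abundant member, had an RPKM of 2.26 and 1.87 in WT and of 1.56 and 1.77 in Mut (log2 fold change -0.35, edgeR adjusted p = 0.432).

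The amino acid genes that ATF4 drives had the largest median difference between the controls of the role groups. Asns, the asparagine synthetase, had an RPKM of 27.3 and 49.4 in WT and of 46.6 and 44.8 in Mut. The low sample was WT replicate 1, and both Mut samples lay between the controls (log2 fold change 0.22, interval -0.38 to 0.82, edgeR adjusted p = 0.738). The same order was found for Psat1 and Phgdh of serine synthesis, for Shmt2, which passes serine carbon to the mitochondrial folate cycle, and for Slc3a2, the heavy chain of the amino acid exchanger. Slc7a5, the light chain of that exchanger, had 32.8 and 48.7 in WT and 42.2 and 30.0 in Mut. Log2 fold changes over the 6 genes ran from -0.21 to 0.22, with a median of -0.022.

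The controls themselves differed in many of these genes. Both Mut values lay between the WT values for 20 of the 40 members, against 19.5% of all tested genes. By role, this held for 8 of 11 chaperones and 5 of 6 amino acid genes, but for 2 of 7 sensors and factors and 2 of 8 ISR regulators. WT replicate 2 was above WT replicate 1 for 30 of the 40 members (56% of all tested genes), including 10 of 11 chaperones and all 6 amino acid genes. The median log2 difference between the controls was 0.44 for the chaperones and 0.51 for the amino acid genes, against 0.062 over all tested genes. Between the Mut samples, replicate 2 minus replicate 1, the same medians were -0.041 and -0.12. The difference between the controls was not limited to the members. Over the 6 further pathway lists described below, its median ran from 0.0082 for the other ER folding enzymes to 0.35 for the cytosolic and mitochondrial chaperones. It was 0.20 for the translocon and transport genes and 0.20 for the other ATF4 targets. For the 8 members with an ERSE the control difference had a median of 0.41, and the 11 other tested genes with an ERSE had one of 0.13. With 1 sample on each side the difference between the controls has no test. WT replicate 1 also had the lowest number of reads and a higher sum of the fibroblast and perichondrium markers (12837 against 9065 in WT replicate 2) and of the muscle markers (95.2 against 32.2), and the part of these in the control difference was not tested.

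**Figure D3:**
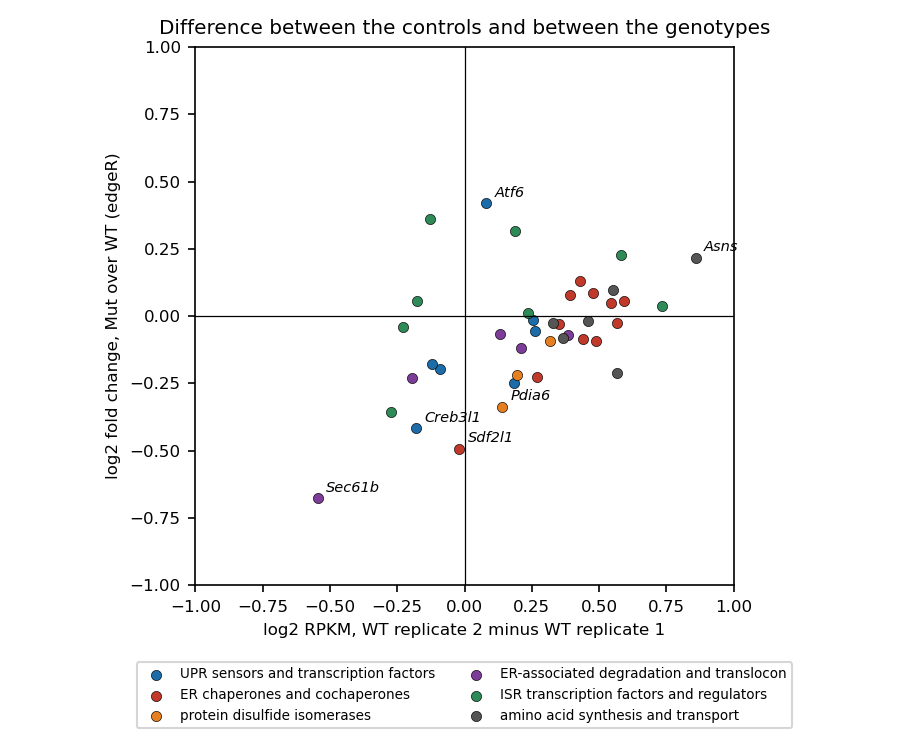
Log2 RPKM difference between the WT samples (horizontal axis, replicate 2 minus replicate 1) and edgeR log2 fold change between genotypes (vertical axis) for the 40 members, colored by role; both axes use the WT samples, so they are not independent. Chaperones and amino acid genes spread to the right along the zero line of the genotype comparison, with Asns at 0.86 between the controls and 0.22 between the genotypes.

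Without WT replicate 2, the edgeR fit called Atf6 and Asns higher (9.42% of all tested genes) and Sdf2l1, Sec61b and Vldlr lower (10.6% of all tested genes), with log2 fold changes of 0.40, 0.65, -0.56, -0.97 and -0.54. That fit holds a single control, whose spread is assumed to be that of the Mut samples. Without WT replicate 1, the log2 fold changes of these members were, in the same order, 0.40, -0.13, -0.46, -0.35 and -0.19. The median over the 40 members was -0.18 in that fit.

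The wider pathway was followed through 6 further lists, which held 169 genes found in the files, of which 167 were tested. By edgeR 0 of these had an adjusted p under 0.05, and by DESeq2 2 were higher and 2 lower, which is 1.198% each way against 3.11% and 1.89% of all tested genes. At an unadjusted edgeR p under 0.05 the counts were 5 higher (2.99%) and 9 lower (5.39%), against 9.29% and 6.28% of all tested genes, and the counts by list below are to be read against these shares. Of the other ER folding enzymes, 1 of 24 was higher and 1 was lower at that unadjusted level, with a list median of -0.16. The lower one was Fkbp11, a prolyl isomerase of secretory cells, with an RPKM of 47.9 and 41.9 in WT and of 31.3 and 28.8 in Mut (log2 fold change -0.62, edgeR adjusted p = 0.137, DESeq2 adjusted p = 0.0434). The higher one was the calcium-binding protein Calu (log2 fold change 0.35, edgeR adjusted p = 0.291). Of 20 other degradation genes, only Edem2 was past the unadjusted level (log2 fold change -0.47, edgeR adjusted p = 0.234). Of 35 translocon and transport genes only Ssr2, a subunit of the translocon-associated complex, was (log2 fold change -0.38, edgeR adjusted p = 0.248).

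Of the 41 other ATF4 targets tested, 2 were higher and 4 were lower at an unadjusted p under 0.05, and the list median was -0.0045. Gdf15, a secreted stress cytokine that p53 also induces, had an RPKM of 1.67 and 2.37 in WT and of 8.01 and 11.1 in Mut. Both Mut samples were well above both controls (log2 fold change 2.19, interval 1.51 to 2.87, edgeR adjusted p = 0.0774, DESeq2 adjusted p = 6.27e-07). In a fit blocked on replicate number its edgeR adjusted p was 0.039, but no pairing by that number is stated. The neutral amino acid carriers Slc1a4 and Slc1a5 had opposite signs, with log2 fold changes of 0.49 (edgeR adjusted p = 0.188) and -0.58 (edgeR adjusted p = 0.137, DESeq2 adjusted p = 0.0228). Pck2 and Cebpg were at -0.41 and -0.47. Among 24 tested eIF2 kinases, translation factors and further UPR genes, Creb3l4 (-0.78) and the BH3-only gene Bcl2l11 (-0.65) were lower at that level. The cytosolic and mitochondrial chaperones had a list median of 0.16, with 18 of 23 genes (78.3%) at a positive log2 fold change against 51.4% of all tested genes. Both Mut samples lay above both controls for 10 of the 23 (43.5%, against 28.3% of all tested genes). The controls differed here too, with WT replicate 2 above WT replicate 1 for 18 of the 23 (56% of all tested genes). WT replicate 1 was the lowest of all samples for 16 of the 23, and for 6094 of the 14123 tested genes. The small heat shock protein Hspb1 had an RPKM of 106 and 99.1 in WT and of 139.8 and 222 in Mut (log2 fold change 0.77, edgeR adjusted p = 0.169, DESeq2 adjusted p = 0.0249). Hspa1b was at a log2 fold change of 0.73 (edgeR adjusted p = 0.157), and its reads may be split with the near-identical Hspa1a.

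**Figure D4:**
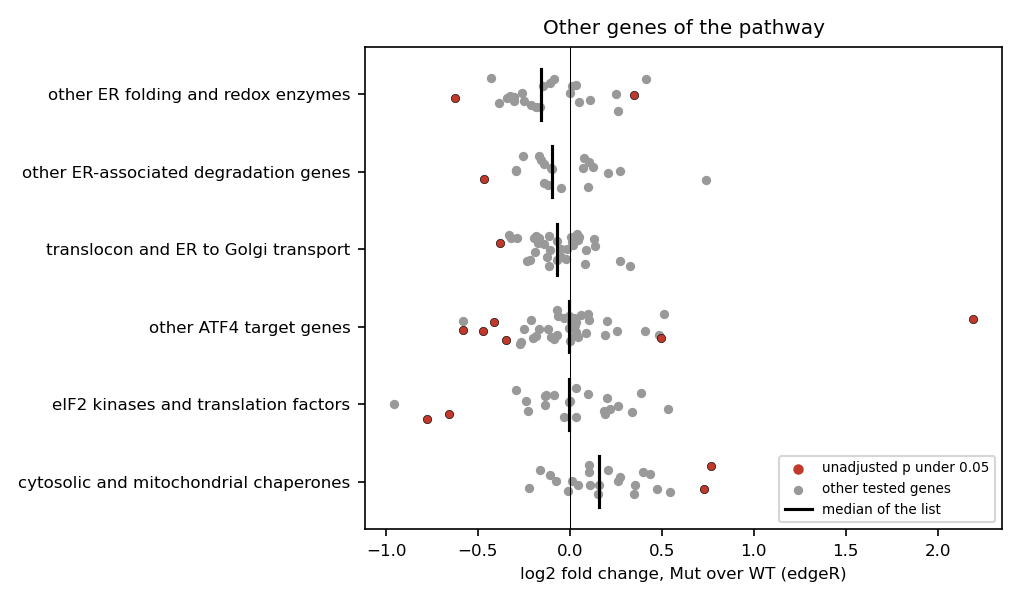
The edgeR log2 fold change between Mut and WT for each tested gene of the 6 further pathway lists (points), with genes at an unadjusted p under 0.05 in red and the median of each list as a black bar; vertical scatter within a list is only for legibility. Medians run from -0.16 for the other ER folding enzymes to 0.16 for the cytosolic and mitochondrial chaperones, and Gdf15 is the point at 2.19.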

How the data were processed

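Poly(A)-selected RNA of 4 primary rib chondrocyte samples was sequenced. For every gene the authors deposited an unnormalized count of reads. They also deposited the RPKM, which scales this count by transcript length and library total. The build mm9 and SAMtools are given per the labels' processing notes, whereas the aligner, counting tool and annotation are not given in the sources used here. The files hold no coordinates, and promoter sequences are from RefSeq (GRCm38.p6), matched by Entrez Gene identifier. Protein sequences were not used here. A gene not listed in a sample was given a count of 0.

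Counts were tested with the quasi-likelihood F test of edgeR 4.0.16 (R 4.3.3) after TMM normalization (factors 0.966 to 1.03), with the robust option, for genes reaching 10 counts in 2 or more samples. Benjamini-Hochberg adjustment covered all tested genes, and the 95% intervals used the standard error from the F statistic. For 2 samples against 2 the smallest exact permutation p is 0.333, so the p-values rest on spread shared between genes. The depth of 21.02 M to 30.99 M reads gave every member at least 87 reads per sample. The chi-square of the counts per degree of freedom was 51.6 for the WT pair and 24.2 for the Mut pair, so the replicates were distinct libraries. The scripts were tested on simulated data.

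Alternatives were DESeq2 1.42.0, limma 3.58.1 on log2(RPKM + 1) and log2(RPKM + 0.1), other filters and normalizations, a block for the replicate number, and fits without 1 sample each. The members and lists were chosen with earlier results of these data known. Sensors, Hspa5 and members past an unadjusted p of 0.05, or with groups that do not overlap and a log2 fold change of at least 0.5 in size, were given in every sample. At most 5 genes of a pathway list were named, by an unadjusted p under 0.05. Other genes named were singled out after their values were seen. The ERSE-II motif was added later.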

Additional observations from a re-analysis of the deposited data

How the results depend on the processing

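With 2 samples a genotype, the spread that each test rests on was estimated from few samples and shared between genes. No member was called under the other filters, the other normalizations, limma or the replicate block, and DESeq2 called 1 lower (1.89% of all tested genes). With 1 sample left out, a group holds a single sample, and members were called only without WT replicate 2. The share over all tested genes was computed for that fit and for DESeq2, but not for the other alternatives. Their counts of 0 members therefore have no background to be read against. The median log2 fold change of the members stayed between -0.18 and 0.068 over all 12 alternatives. Members with both Mut samples above the WT samples numbered 3, and between 4 and 25 with 1 sample left out, while those below numbered 11, and between 11 and 32. Such counts can only grow when fewer samples have to be cleared: the 25 (62.5% of members), without WT replicate 2, stood against 51.5% of all tested genes, and the 32 (80.0%), without WT replicate 1, against 36.6%. With TMM factors on the RPKM there were 2 above (25.4% of all tested genes) and 11 below (22.8% of all tested genes). With DESeq2 size factors there were 2 above (24.3% of all tested genes) and 12 below (24.4% of all tested genes).

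The sign of values near 0 depended on the scaling. The settings named next use neither TMM factors nor DESeq2 size factors. With library size only, limma on log2(RPKM + 1) and limma on log2(RPKM + 0.1), the log2 fold change was 0.025, 0.027 and 0.027 for Atf4. In the same order it was 0.0058, 0.0073 and 0.0081 for Ddit3, and 0.012, 0.039 and 0.040 for Hspa5. The TMM factors that these settings leave out were 0.966 and 1.005 in WT and 1.002 and 1.028 in Mut. Whether anything else took part in the sign was not tested. With 1 sample left out, the value ran from -0.16 to 0.024 for Ern1, from -0.13 to 0.095 for Atf4, from -0.20 to 0.10 for Ddit3 and from -0.26 to 0.23 for Hspa5.

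With the replicate number as a replicate block, 0 members were higher and 0 lower, and the median was -0.043. The share over all tested genes was not computed for this fit. Genes outside the members did pass in it, among them Thy1 (edgeR adjusted p = 0.036). Replicate differences of the genotypes had a correlation of -0.055 across genes. That value rests on a single difference per genotype, so it cannot show whether samples of the same number were paired, for example by litter.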

Other observations

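Some abundant secretory pathway mRNAs outside the members, chosen after their values were seen, are given beside the chaperones. Col2a1, the collagen of cartilage, had an RPKM of 609 and 659 in WT and of 334 and 445 in Mut (log2 fold change -0.75, interval -1.14 to -0.35, edgeR adjusted p = 0.114, DESeq2 adjusted p = 0.00112). Col1a1 had 7253 and 4961 in WT and 4828 and 3311 in Mut (log2 fold change -0.63, edgeR adjusted p = 0.332). Serpinh1, which encodes the collagen chaperone HSP47 of the ER, had 1763 and 1398 in WT and 1379 and 1194 in Mut (log2 fold change -0.34, interval -0.77 to 0.09, edgeR adjusted p = 0.430). For all 3 genes both Mut samples lay below both controls (19.2% of all tested genes), as they did for 11 of the 40 members. Among these were the chaperones Calr and Sdf2l1, the isomerases Pdia4 and Pdia6, and Sec61b. For 8 of the 11 chaperones and 1 of the 3 isomerases both Mut samples lay between the controls. Other abundant mRNAs of this path lay above both, among them Calu (238 and 293 in WT, 349 and 347 in Mut) and Spp1 (310 and 468 in WT, 479 and 600 in Mut). None of Col2a1, Col1a1 and Serpinh1 passed the adjusted threshold in the edgeR test. In the same libraries, 12 of 15 chondrocyte markers were lower at an unadjusted edgeR p under 0.05 (6.28% of all tested genes), with a median log2 fold change of -1.50. Col2a1 is itself 1 of these 12, and Col1a1 is 1 of the fibroblast and perichondrium markers. The collagen values and the marker values are therefore partly the same values. Of 10 striated muscle markers, 9 had a positive log2 fold change (51.4% of all tested genes). The part of any difference in cell types in the collagen values was not tested.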
